A study of Mus musculus with 4 samples.

Results

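This account describes 10 genes of sugar breakdown and lactate use in the mouse testis. They are the sperm or germ cell forms Gapdhs, Aldoart1, Aldoart2 and Ldhc, their relatives Gapdh, Aldoa and Ldha, the hexokinase Hk1, the phosphoglycerate mutase Pgam2 and the monocarboxylate transporter Slc16a7. Each was found by its symbol among 26068 named genes of the deposited table. All 10 of 10 were found, each in a single entry, and all 10 passed the filter on low values, which kept 13414 genes. Total RNA from whole testes of male B6D2F1 mice, a cross of inbred strains, was sequenced at 24 days of age. There were 2 libraries from wild type mice and 2 from mice homozygous for the Adad2 knockout. The labels do not say which part of Adad2 was deleted, whether RNA of several animals was pooled, or whether replicates are separate animals, so p-values measure only the spread between these libraries. Levels are in RPKM (reads per kilobase of gene and per unit of library depth), and changes are differences of log2 RPKM, knockout minus wild type.

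Glycolysis splits glucose into pyruvate, and lactate dehydrogenase converts pyruvate and lactate into each other. Germ cells replace several of the ordinary enzymes by forms made only or mainly in the testis, some of them encoded by intronless copies of older genes. Spermatocytes and early spermatids live largely on lactate that Sertoli cells supply, while sperm carry glycolytic enzymes bound to the fibrous sheath of the tail. Whole testis at this age holds meiotic cells and the earlier spermatids beside somatic cells.

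The depth estimated from the value of 1 read was 29200000 to 36500000 reads per library. Adad2 itself stood at 25.2 and 22.2 RPKM in the wild type and 13.2 and 9.86 RPKM in the knockout libraries, so its transcript was lower but still measured (2.07-fold, limma adjusted p = 0.00604). Markers of the labelled tissue were present in every library, with summed levels of 1281 to 1627 RPKM for 10 spermatocyte genes and 422 to 532 RPKM for 9 Sertoli genes. The summed level of 10 spermatid markers was 888 and 839 RPKM in the wild type and 92.0 and 50.9 RPKM in the knockout libraries. Red blood cell genes summed to 106 RPKM in wild type replicate 1, against 38.5 to 50.5 RPKM in the other libraries.

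Several members are copies of one another, which bears on whether reads can be told apart. The coding sequence of Aldoart1 was identical to that of Aldoa at 94.2% of aligned bases, and that of Aldoart2 at 92.1% (GENCODE M21 transcripts). Gapdhs and Gapdh shared 74.4% of aligned bases, Ldhc and Ldha 76.3%, and Pgam2 and its relative Pgam1 77.7%. The coding sequence of Gapdhs was 1314 bases long and that of Gapdh 999 bases, the longer one beginning with a stretch that has no counterpart in Gapdh. The lines below give 60 bases from the middle of the coding sequence of the older gene, with the matching stretch of its copy, to show how close the aldolase copies are beside the dehydrogenase pair. Capitals mark bases that differ from the older gene.
Aldoa: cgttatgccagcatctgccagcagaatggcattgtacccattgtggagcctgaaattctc
Aldoart1: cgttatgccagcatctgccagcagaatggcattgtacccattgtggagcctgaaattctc
Aldoart2: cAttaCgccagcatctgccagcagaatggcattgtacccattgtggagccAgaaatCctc
Gapdh: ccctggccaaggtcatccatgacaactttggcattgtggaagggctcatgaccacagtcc
Gapdhs: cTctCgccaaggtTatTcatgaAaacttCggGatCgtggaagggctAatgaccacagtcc
In this stretch Aldoart1 had 0 differences from Aldoa, Aldoart2 had 4, and Gapdhs had 9 from Gapdh.

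The same transcripts were searched for windows of 50 bases that also occur, without a mismatch and on either strand, in a transcript of another gene. For Gapdh 90.4% of windows did, in transcripts of 222 other genes, of which 213 are annotated as pseudogenes. The share was 19.1% for Ldha, 14.4% for Aldoa, 5.80% for Aldoart1, 2.81% for Gapdhs and 0.311% for Aldoart2. The 2.81% of Gapdhs lay in a single other gene, Tmem147os. No such window was found for Hk1, Ldhc, Slc16a7 and Pgam2. The search took 1 transcript per gene, so other exons were not covered. For Slc16a7 this transcript had 2238 bases, beside 11839 over all annotated exons, and for Hk1 3639 beside 8532. How the authors treated reads that match several places is not given in the sources used here, so the level of Gapdh is uncertain, and those of Ldha and Aldoa less so.

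Of the 10 genes, 5 fell in the knockout, 0 rose and 5 did not pass the test (limma adjusted p under 0.05). Among all genes tested 7.15% were called lower and 1.22% higher, 8.36% in all. The 5 that fell were Gapdhs, Slc16a7, Aldoart2, Hk1 and Aldoart1, in this order of size, from 4.46-fold to 1.58-fold. In bulk tissue, fewer cells of a type and less RNA per cell cannot be told apart. The median change of the 10 was -0.41, beside 0.14 over all genes tested. The groups did not overlap in 7 of the 10 genes, against 63.2% of all genes tested, which is close to that background. Without wild type replicate 1, limma called 0 of the 10 genes and 0 of all genes tested, with 6 of the 10 and 1277 of all genes lower at an unadjusted p under 0.05, and the smallest adjusted p of the 10 was 0.0535. The changes themselves moved little, to -2.14 for Gapdhs, -1.56 for Slc16a7, -1.27 for Aldoart2, -1.04 for Hk1 and -0.53 for Aldoart1.

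**Figure D1:**
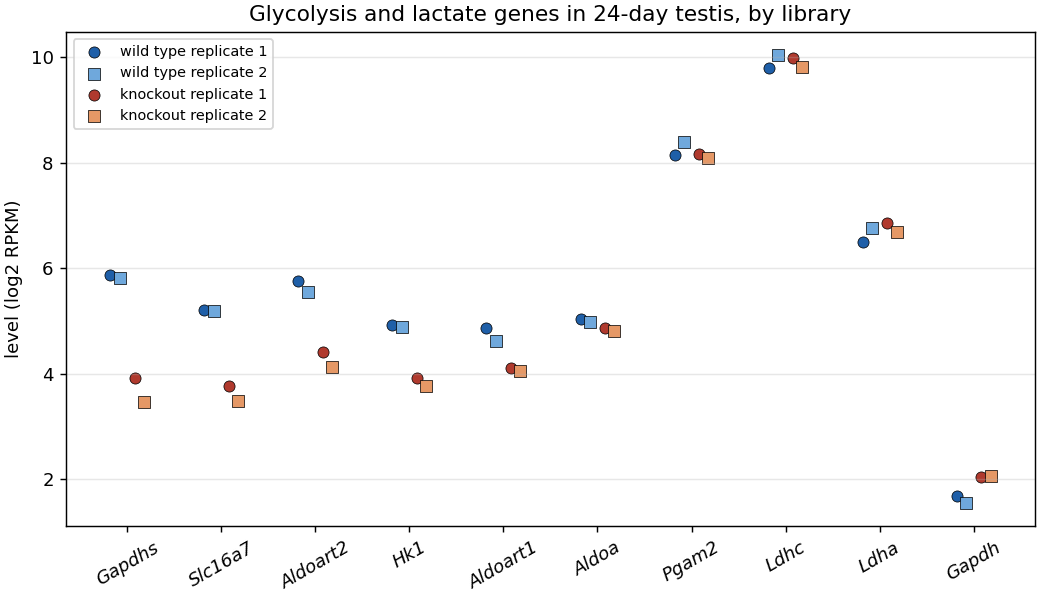
Level of each of the 10 genes (log2 RPKM, vertical axis) in the 2 wild type and 2 knockout libraries, one point per library. In the 5 genes at the left both knockout points lie below both wild type points, while the points of Pgam2, Ldhc and Ldha are mixed and Gapdh is lowest in the wild type.

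Gapdhs encodes the sperm form of glyceraldehyde 3-phosphate dehydrogenase, the enzyme bound to the fibrous sheath. Its level was 58.1 and 56.5 RPKM in the wild type libraries and 15.0 and 11.0 RPKM in the knockout libraries. Both knockout libraries were far below both wild type libraries, and knockout replicate 2 was the lowest. On the log2 scale it went from 5.84 ± 0.03 to 3.68 ± 0.32 (SD, n = 2), a change of -2.16 (95% confidence interval -2.52 to -1.80, limma adjusted p = 0.000278). Of 13414 genes tested, 220 had a larger decrease. An estimated 2808 and 3318 reads stood behind the wild type values and 788 and 517 behind the knockout values, so counting error is small beside the difference. Gapdhs lies on the minus strand of chromosome 7 from 31514799 to 31528700 in mm9 (ENSMUSG00000061099).

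Gapdh, the form used by most cells, was measured at 3.22 and 2.91 RPKM in the wild type libraries and at 4.11 and 4.16 RPKM in the knockout libraries. The knockout libraries were the higher ones and the groups did not overlap. The change was 0.43 (95% confidence interval 0.13 to 0.73, limma adjusted p = 0.0883), which did not pass the test. With the replicate number as a block it did (limma adjusted p = 0.00853). That fit also called 1837 of all genes tested higher, against 163 without the block. The labels do not say that replicate numbers pair animals, so the call with the block is not firm. The level of Gapdh was the lowest of the 10 genes in every library, and as given above most of its transcript also occurs in pseudogenes. Gapdh is on the minus strand of chromosome 6 from 125111871 to 125116485.

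Of the aldolases, which split the sugar into smaller phosphates, both intronless copies fell. Aldoart2 stood at 53.9 and 46.5 RPKM in the wild type libraries and 21.3 and 17.4 RPKM in the knockout libraries. Aldoart1 stood at 29.2 and 24.6 RPKM against 17.3 and 16.7 RPKM. In each copy every knockout library was below every wild type library. The change was -1.38 for Aldoart2 (95% confidence interval -1.68 to -1.07, limma adjusted p = 0.000593) and -0.66 for Aldoart1 (-0.92 to -0.39, limma adjusted p = 0.00967). Leaving out either wild type library ended the call of Aldoart1 (limma adjusted p = 0.114 without replicate 1 and 0.0509 without replicate 2). Aldoa, the older gene, was at 32.9 and 31.6 RPKM in the wild type and 29.2 and 28.2 RPKM in the knockout libraries. These values did not overlap but lay close together, and the change of -0.17 did not pass the test (95% confidence interval -0.40 to 0.06, limma adjusted p = 0.29). Aldoart2 lies on chromosome 12 (plus strand, 56666226 to 56667883), Aldoart1 on chromosome 4 (minus strand, 72511755 to 72513668) and Aldoa on chromosome 7 (minus strand, 133938748 to 133944265).

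Hk1 encodes a hexokinase, which phosphorylates glucose at the entry to glycolysis, and has transcript forms particular to germ cells. Its level was 30.5 and 29.6 RPKM in the wild type libraries and 15.2 and 13.6 RPKM in the knockout libraries. Replicates differed little within each group and the groups did not overlap. The change was -1.07 (95% confidence interval -1.31 to -0.82), a 2.09-fold lower level (limma adjusted p = 0.000672). The table gives a single value per gene, so the germ cell transcript and the common one were not told apart. Hk1 lies on the minus strand of chromosome 10 from 61731603 to 61842656, and the clone-named gene 2210417K05Rik lies within it on the opposite strand, at -2.10 and -1.94 log2 RPKM in the wild type and at -4.10 and -2.71 in the knockout.

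Slc16a7 encodes a high-affinity transporter that moves lactate and pyruvate across the cell membrane. It stood at 36.7 and 36.2 RPKM in the wild type libraries and at 13.5 and 11.2 RPKM in the knockout libraries. Both wild type libraries were nearly equal and well above both knockout libraries. The change was -1.57 (95% confidence interval -1.84 to -1.29), a 2.96-fold lower level with the smallest adjusted p of the 10 genes (limma, 0.00022). Slc16a7 lies on the minus strand of chromosome 10 from 124663520 to 124766019.

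**Figure D2:**
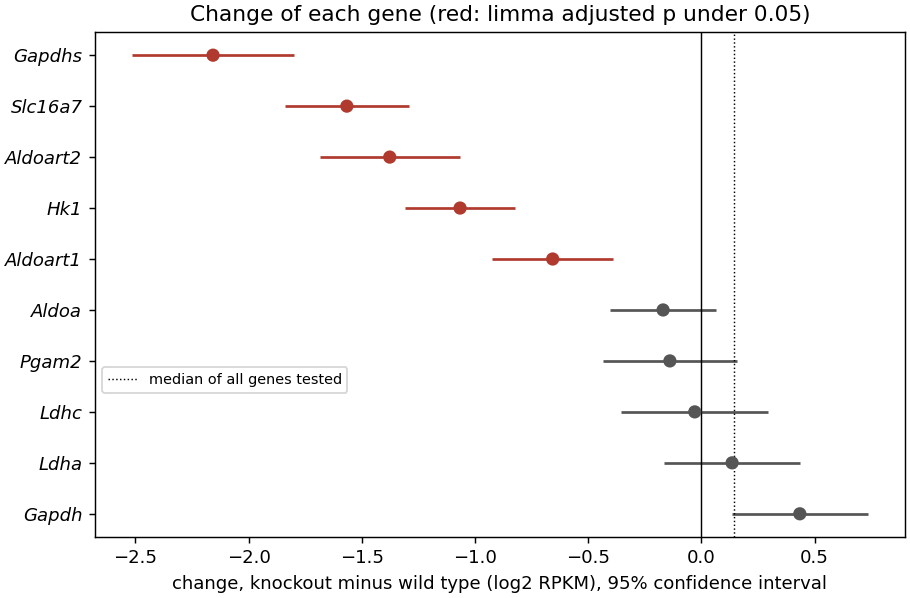
Change of each of the 10 genes, knockout minus wild type (log2 RPKM, horizontal axis), as points with 95% confidence intervals from limma. Intervals of Gapdhs, Slc16a7, Aldoart2, Hk1 and Aldoart1 (red) lie below 0, and the dotted line is the median of all genes tested, 0.14.

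The lactate dehydrogenases did not pass the test. Ldhc, the subunit made only in germ cells, was the most abundant of the 10 genes, at 893 and 1057 RPKM in the wild type libraries and 1009.6 and 897 RPKM in the knockout libraries. Each knockout library lay within the range of the wild type libraries. The change was -0.03 with a 95% confidence interval of -0.35 to 0.30 (limma adjusted p = 0.892). A decrease of more than 1.28-fold was thus outside this interval, and each of the 5 genes that fell had a larger one. Ldha, the form of muscle and many other tissues, was at 90.7 and 108.5 RPKM in the wild type and 115.8 and 102.6 RPKM in the knockout libraries, again with overlap (change 0.14, 95% confidence interval -0.16 to 0.44, limma adjusted p = 0.49). Ldhc and Ldha are neighbours on the plus strand of chromosome 7, at 54116573 to 54133512 and 54096845 to 54110997, with 5575 bases between them.

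Pgam2, the phosphoglycerate mutase of muscle and germ cells, was the next most abundant, at 283.2 and 335.7 RPKM in the wild type libraries and 286.9 and 273.3 RPKM in the knockout libraries. The groups overlapped, since wild type replicate 1 lay between the knockout libraries. The change was -0.14 (95% confidence interval -0.43 to 0.16, limma adjusted p = 0.471). Pgam2 is on the minus strand of chromosome 11 from 5701643 to 5703736.

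In the wild type the order of mean level was Ldhc, Pgam2, Ldha, Gapdhs, Aldoart2, Slc16a7, Aldoa, Hk1, Aldoart1 and Gapdh. Neighbours in this order did not overlap in their wild type values, although Aldoa, Hk1 and Aldoart1 lay close together, between 24.6 and 32.9 RPKM. In the knockout the 5 genes that fell lay between 11.0 and 21.3 RPKM, all below Aldoa. There Gapdhs overlapped with Hk1 and with Slc16a7.

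Gapdhs, Aldoart1, Aldoart2, Ldhc and Pgam2 were then each set against a relative within the same library. The measure was a difference of log2 RPKM, which is a ratio per gene length. Gapdhs exceeded Gapdh by 4.18 and 4.28 in the wild type and by 1.87 and 1.40 in the knockout, that is 18.7-fold and 3.11-fold on average. Part of this shift of -2.59 comes from Gapdh, whose reads are uncertain. Aldoart2 minus Aldoa was 0.71 and 0.56 in the wild type and -0.45 and -0.69 in the knockout. The order of these genes was therefore opposite in the groups. Aldoart1 minus Aldoa was -0.18 and -0.36 in the wild type and -0.75 and -0.76 in the knockout libraries. Ldhc minus Ldha was 3.30 and 3.28 in the wild type and 3.12 and 3.13 in the knockout libraries, a shift of -0.16. Counted from 0, most of it came from Ldha, which changed by 0.14, while Ldhc changed by -0.03. The median change over all genes tested was also 0.14, and 19.1% of the windows of Ldha also occur in other genes. Pgam2 minus Pgam1 was 4.61 and 4.68 in the wild type and 4.19 and 4.14 in the knockout libraries, a shift of -0.49. Counted from 0, most of it came from Pgam1, which changed by 0.35, while Pgam2 changed by -0.14. Of the windows of Pgam1, 41.5% also occur in pseudogenes, so its reads are uncertain. None of Ldhc, Ldha, Pgam2 and Pgam1 passed the limma test on its own. The groups did not overlap in any of the 5 pairs, of which those of Aldoart1 and Aldoart2 share Aldoa. Among single genes 63.2% of all tested did not overlap, and the share for pairs of genes was not computed. With 2 libraries against 2, an exact two-sided permutation test cannot go below 0.333, and each pair had this value, also after Benjamini-Hochberg adjustment over the 5 pairs.

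**Figure D3:**
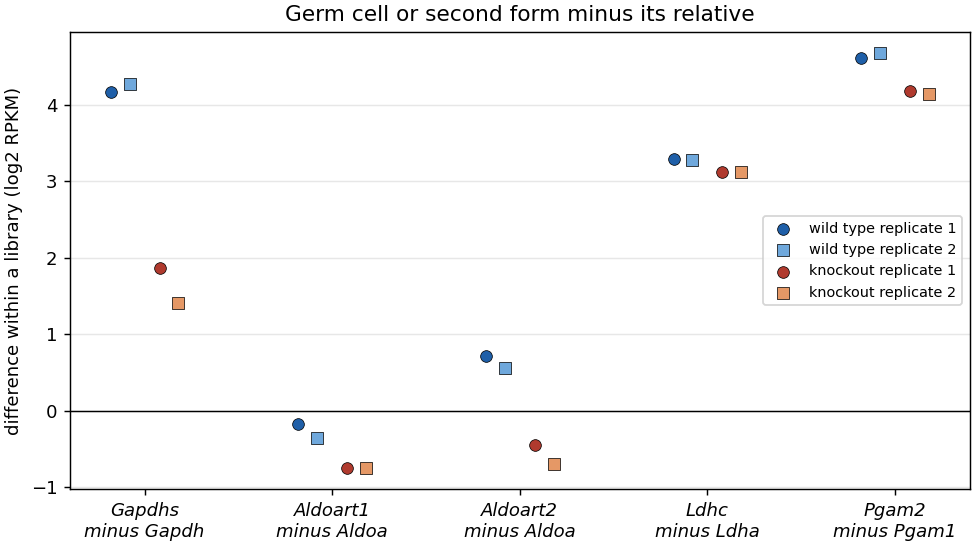
Difference of log2 RPKM between a germ cell or second form and its relative within each library (vertical axis) for 5 pairs, one point per library. The points of Gapdhs minus Gapdh drop from above 4 to below 2, those of Aldoart2 minus Aldoa cross 0, and those of Ldhc minus Ldha stay near 3.

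The total supply of transcripts for a step depends on all genes that encode it, so RPKM was summed over the listed genes of 7 steps. This summary was chosen after the data were seen. For glyceraldehyde phosphate dehydrogenase the sum was 61.4 and 59.4 RPKM in the wild type and 19.1 and 15.2 RPKM in the knockout libraries. The share of Gapdhs in it was 94.8% and 95.1% against 78.5% and 72.5%. Both the sum and the share depend on Gapdh, whose level is uncertain, as 90.4% of its windows of 50 bases also occur in other genes. For monocarboxylate transport the sum was 49.8 and 50.3 against 28.3 and 27.4 RPKM, with a share of Slc16a7 of 73.9% and 72.1% against 47.8% and 40.9%. For aldolase it was 117 and 104 against 69.3 and 63.7 RPKM, and the copies Aldoart1 and Aldoart2 made up 71.0% and 68.6% against 55.7% and 53.6%. For hexokinase the sum over 4 genes was 38.2 and 37.7 against 24.1 and 24.0 RPKM. Phosphoglycerate kinase, nearly all of it Pgk2 by these values, summed to 142 and 141 against 103 and 83.9 RPKM. Of the windows of Pgk1, 68.0% also occur in other genes, so its part is uncertain as well. In these 5 steps the knockout sum was below the wild type sum in every library. Among single genes 63.2% of all tested did not overlap, in either direction, and the share for sums was not computed. For lactate dehydrogenase the sums overlapped, at 1008 and 1187 RPKM in the wild type and 1154 and 1028 RPKM in the knockout libraries. Phosphoglycerate mutase overlapped too, at 295 and 349 against 303 and 289 RPKM. The exact two-sided permutation test gave 0.333, the smallest value possible, for each step whose groups did not overlap (0.467 after Benjamini-Hochberg adjustment over the 7 steps).

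**Figure D4:**
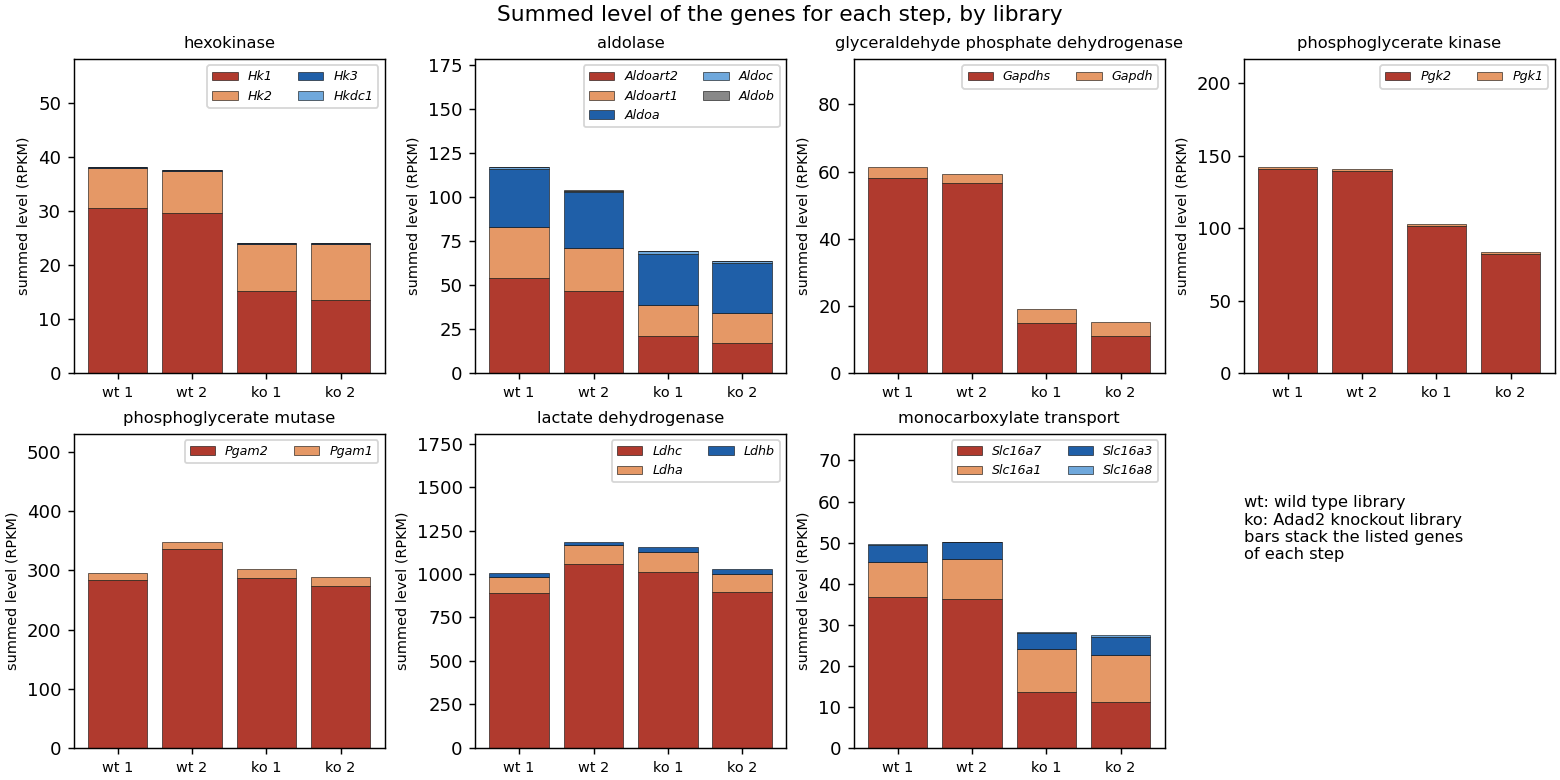
Summed RPKM of the listed genes for 7 steps (vertical axis, starting at 0), stacked by gene, in each wild type (wt) and knockout (ko) library. The bars for glyceraldehyde phosphate dehydrogenase fall from about 61.4 and 59.4 to 19.1 and 15.2 RPKM, while those for lactate dehydrogenase overlap between groups. The level of Gapdh is uncertain.

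The rest of the pathway moved little. Of 57 other genes of glycolysis, sugar entry, lactate handling and pyruvate entry, 56 were in the table and 45 were tested, of which 1 fell and 0 rose. Among all genes tested 7.15% were called lower and 1.22% higher. The median change of the 45 pathway genes was 0.14, the same as over all genes tested. The gene that fell was Pgk2, the intronless germ cell phosphoglycerate kinase, at 141 and 139 RPKM in the wild type and 101 and 82.2 RPKM in the knockout libraries. Its change of -0.62 (95% confidence interval -0.91 to -0.32, limma adjusted p = 0.0216) was no longer called when wild type replicate 1 (adjusted p = 0.179), wild type replicate 2 (0.144) or knockout replicate 2 (0.171) was left out, nor with no filter (0.0701) or with limma's plain variance estimate (0.055). Pgk1, its widely used relative, was at 1.75 and 1.65 RPKM against 1.58 and 1.66 RPKM, but 68.0% of its windows of 50 bases also occur in other genes.

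Among 15 other glycolytic enzymes tested, Pgk2 was the 1 that fell. Hk2, the hexokinase that is induced in many growing tissues, had a change of 0.31 (limma adjusted p = 0.145), so that Hk1 and Hk2 differed in sign. Pgam1 had a change of 0.35 (adjusted p = 0.096) and Aldoc of 0.47 (adjusted p = 0.181), and for Pgam1 41.5% of windows also occur in its pseudogenes. Gpi1, which interconverts glucose and fructose phosphates, was at -0.37 (adjusted p = 0.0833), and 25.3% of its windows also occur in other genes.

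Of 6 tested genes of lactate handling 0 were called, and all 6 had a change above 0, from 0.03 to 0.29, as did 9628 of 13414 genes tested. Slc16a1, the widely expressed relative of Slc16a7, stood at 8.57 and 9.72 RPKM in the wild type and 10.5 and 11.4 RPKM in the knockout libraries (change 0.26, limma adjusted p = 0.188). Bsg, the partner protein that carries several of these transporters to the membrane, was abundant and overlapped between groups, at 160 and 171 against 172 and 167 RPKM (change 0.03, adjusted p = 0.854). Ldhb, the heart form of lactate dehydrogenase, had a change of 0.29 (adjusted p = 0.151), and 27.0% of its windows also occur in a pseudogene. Of 6 sugar entry genes, 10 regulators of glycolysis and 8 genes of pyruvate entry, 0 were called. At an unadjusted p under 0.05, limma had 4 of the 45 pathway genes lower and 6 higher, beside 1519 lower and 2097 higher of 13414 genes tested, so these counts do not exceed the background.

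Markers of spermatids were also lower in the knockout, most of them further than the members that fell. Of 10 spermatid markers 9 fell and 0 rose, while 7.15% of all genes tested were called lower. These markers were listed with earlier results of these data known, so the count is a description only. The median change of the 10 markers was -4.10. The smallest was -1.54, for the acrosomal gene Spaca1. The transition protein gene Tnp2 had a change of -5.39 but did not pass the test (limma adjusted p = 0.0761), with 9.67 and 2.35 RPKM in the knockout libraries. Gapdhs, at -2.16, lay among the markers with the smaller changes, which were Spaca1, the outer dense fibre gene Odf1 at -2.16, the acrosomal gene Acrv1 at -2.44 and the fibrous sheath gene Akap4 at -2.67. Of 10 spermatocyte markers 1 fell, Pgk2, and 1 rose, Tex101. All 9 Sertoli markers tested had changes above 0, from 0.18 to 0.48, where 9628 of 13414 genes tested also lay above 0, and 0 were called. The part of these marker differences in the results of the 10 genes was not tested. Knockout replicate 2 was below knockout replicate 1 in the 5 members that fell and in the 10 spermatid markers, but also in 4 of the 5 other members and in 7492 of 13414 genes tested. Among the 5 that fell, the gap between the knockout libraries ran from 0.053 in Aldoart1 to 0.45 in Gapdhs, and that between the wild type libraries from 0.021 in Slc16a7 to 0.25 in Aldoart1.

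**Figure D5:**
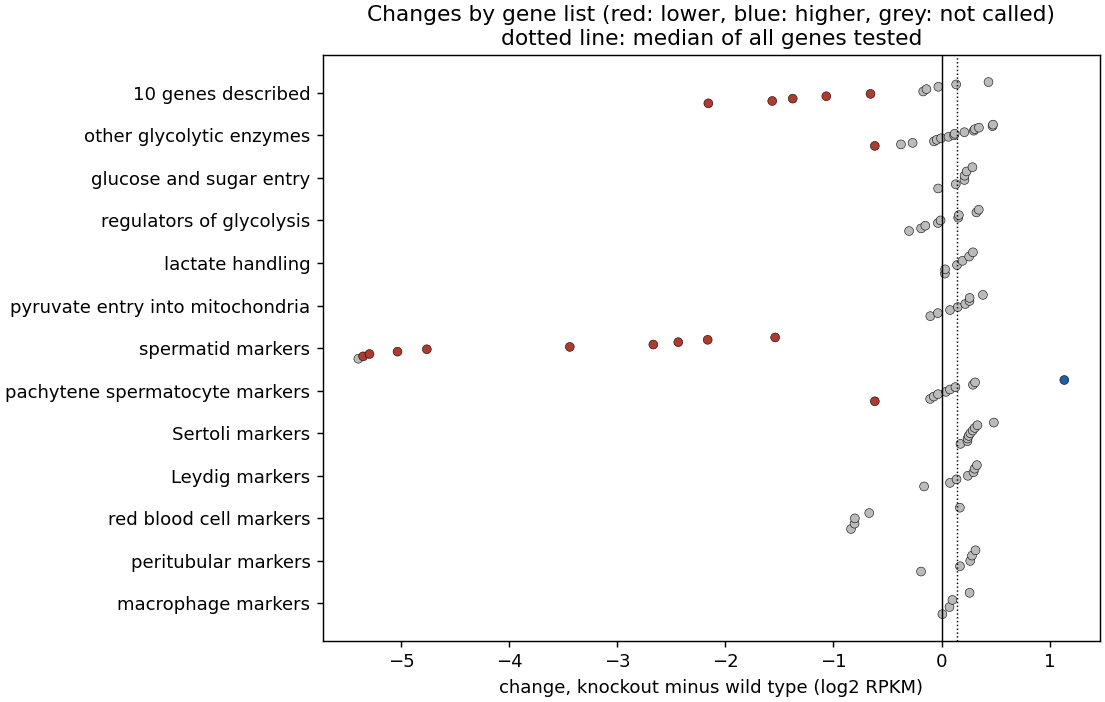
Change of each tested gene, knockout minus wild type (log2 RPKM, horizontal axis), by gene list, with red for called lower, blue for called higher and grey for not called. The 10 genes described spread from -2.16 to 0.43, the spermatid markers lie from -5.39 to -1.54, and the other pathway genes lie from -0.62 to 0.48.

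Promoters from RefSeq (GRCm38.p6, 250 bases before to 50 after a start site) were in hand for 8 of the 10 genes, with 14 start sites, and not for Aldoart1 and Slc16a7. They were searched on both strands for the cyclic AMP response element TGACGTCA and its half-site TGACG, which lies within it, since the factor Crem acts through this element in spermatids. Among 32851 promoters of the same length 1.79% held the full element and 20.8% the half-site. Ldha held the full element at 1 start site, beginning at -12, and the half-site alone at another, at -143, and Gapdh, Aldoa, Aldoart2, Hk1 and Pgam2 held neither. A match is a description of letters only. The sequences of Gapdhs, which fell furthest, and of Ldhc, which did not pass the test, are shown at their upstream start sites with half-sites in capitals.
Gapdhs, chr7:30743632-30743931, minus strand: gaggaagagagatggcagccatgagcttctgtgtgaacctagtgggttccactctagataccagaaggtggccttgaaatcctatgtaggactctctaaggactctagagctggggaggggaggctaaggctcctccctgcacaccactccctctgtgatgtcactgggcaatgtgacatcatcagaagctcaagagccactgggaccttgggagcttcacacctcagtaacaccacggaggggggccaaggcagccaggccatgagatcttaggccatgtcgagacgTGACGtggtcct
Ldhc, chr7:46861013-46861312, plus strand: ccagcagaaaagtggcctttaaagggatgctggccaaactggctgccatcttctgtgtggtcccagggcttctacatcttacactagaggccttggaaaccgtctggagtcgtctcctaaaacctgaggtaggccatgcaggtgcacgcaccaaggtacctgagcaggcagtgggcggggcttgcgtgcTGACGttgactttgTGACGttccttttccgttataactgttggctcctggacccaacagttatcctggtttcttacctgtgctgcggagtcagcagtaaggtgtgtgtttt
At the start sites shown, Gapdhs held 1 half-site, 39 bases into the transcript counting the start as 1, and Ldhc held 2, at -61 and -47. At its other start site each of these genes held 0 half-sites. Half-sites were therefore present both in a gene that fell and in one that did not pass the test.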

How the data were processed

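Values in log2 RPKM, one per gene and library, were deposited by the authors. The RNA was extracted with ISOGEN and the libraries were TruSeq RNA libraries, per the labels' protocols. Bcl2fastq 2.17.1.14, Bowtie2 and the mm9 genome are named in the submitters' processing notes. For the counting tool, annotation, strand setting and filters, nothing is stated in the sources used here. Columns were matched to samples by group and number. Of 26127 entries 59 (0.23%) name no gene and were left out, and 0 columns of sample values were left unmapped. Coordinates are those of the table (mm9) except where GRCm38 is named.

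Genes with a mean of at least 0 on the log2 RPKM scale (1 RPKM) were tested in R 4.3.3 by limma 3.58.1, with robust empirical Bayes variances that follow a trend in mean level (statmod 1.5.0), two-sided, and Benjamini-Hochberg adjustment over 13414 genes at 0.05. The code was tested on simulated data. No pseudocount was added. The table gives no counts. Depth was chosen as the number of reads at which low values came closest to whole multiples of the value of 1 read. Of 535 genes of a single exon, 97 to 119 per library had values in the range used, up to 10 reads. At the chosen depth all of these lay within 2% of a whole multiple. Genes without reads carried 0.89 of a read. Reads per gene are estimates from GENCODE M21 exon lengths. Coding sequences were aligned with Biopython 1.88. Where a symbol had several entries the highest mean stood for it.

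The members and lists were chosen with earlier results of these data known. Named genes are the 10 members, Adad2, pathway genes past the threshold, direct relatives of members (Pgam1, Slc16a1, Bsg, Ldhb, Pgk1, Pgk2, Aldoc, Hk2) and the 5 genes most like Gapdhs. Gpi1, Hkdc1 and the single marker genes were named after their values were seen. An item of the lists is not reported here. Lists for Leydig, peritubular and macrophage cells had 0 called of 7, 5 and 4 tested genes, and 0 of 5 red blood cell genes were called. In the order wild type 1, wild type 2, knockout 1, knockout 2, the summed RPKM was 289, 431, 342 and 489 for Leydig, 47.1, 42.9, 56.6 and 51.7 for peritubular, and 11.5, 12.0, 12.5 and 13.1 for macrophage genes. Alternatives were leaving out each library, a block for the replicate number, a threshold of 0.1, no filter or one at 2, plain limma variances, a pseudocount of 1 on RPKM, and scaling by quantiles or by library medians.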

Additional observations from a re-analysis of the deposited data

How the results depend on the processing

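Adad2 itself was no longer called when either wild type library was left out (limma adjusted p = 0.143 and 0.0838). Over all 13414 genes, 959 were called lower and 163 higher. A filter at 2 on the log2 scale gave 637 lower, no filter gave 97 higher, and a threshold of 0.1 gave 542 higher. Leaving out a library gave 0 to 1308 lower and 0 to 494 higher genes, with 0 in each direction without wild type replicate 1. Replicate numbers occur in each group, but the labels do not say that they pair animals. Deviations of same-numbered libraries correlated at 0.331 across genes. With the replicate block 1477 genes were lower and 1837 higher. Among the 10 members it gave 1 higher, Gapdh, as did the threshold of 0.1. Among the 45 pathway genes it gave 3 lower and 5 higher. The count of members called lower was 5 throughout, except that leaving out a library gave 0 to 5. The pathway count of 1 lower became 0 without a filter and without trend and robust estimation, and 2 at the threshold of 0.1, and leaving out a library gave 0 to 1. The pathway count of 0 higher became 1 without a filter (56 genes tested) and 1 at the threshold of 0.1, and leaving out a library gave 0 to 1. Ldhc, not called in any setting run, turned from -0.03 to 0.093 without wild type replicate 2 and to 0.056 without knockout replicate 2, within a range of -0.15 to 0.093 when each library was left out. The summed lactate dehydrogenase level turned from -0.0064 on the log2 scale to 0.11 without wild type replicate 2 and to 0.077 without knockout replicate 2 (range -0.12 to 0.11), and that of phosphoglycerate mutase from -0.12 to 0.0041 without wild type replicate 2 (range -0.24 to 0.0041). All 5 isoform differences kept their sign in the 6 alternatives run for them. The cause of these shifts was not tested. Fitting a lone library assumes that it varies like the other group. The depth per gene limits Hkdc1 most.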

Other observations

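The genes whose values over the 4 libraries were most like those of Gapdhs, by the root mean square difference after centring each gene on its mean, were Rnf151 (0.020), Spz1 (0.043), Fam71d (0.046) and the clone-named 4933417A18Rik (0.047) and 4930406D18Rik (0.049). Rnf151, which encodes a RING finger protein, stood at 5.78 and 5.71 log2 RPKM in the wild type and 3.78 and 3.32 in the knockout, beside 5.86, 5.82, 3.91 and 3.46 for Gapdhs. Spz1, a transcription factor gene of the testis, stood at 6.47 and 6.31 against 4.49 and 4.02. These 4 libraries fall in 2 groups, so the measure follows the difference between the groups first.

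Hkdc1, the hexokinase-like gene next to Hk1 with 3228 bases between them, was close to the floor of the table. Its estimated reads were 0.992 and 0.890 in the wild type and 6.92 and 3.97 in the knockout libraries, while an estimated 3384 to 9220 reads stood behind Hk1. The 0.890 of wild type replicate 2 is the value that genes without reads carry. Hkdc1 was under the filter and not tested. In the fit without a filter its limma adjusted p was 0.0161, which rests in part on that value.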
